A study of Mus musculus with 64 samples.

Results

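The features described here are 100 spots of an expression array that moved one way when 3T3-L1 adipocytes stayed in TNF, measured against vehicle, and then moved further the same way in cultures given ASA and TGZ after TNF. They were chosen among the 6664 features whose identifier begins with MSK, of 6963 features on the array. They were chosen by their mean differences in the odd-numbered arrays alone. A member had a mean difference of TNF from vehicle and a mean difference of the combination from TNF that had the same sign and were each at least 0.25 log units in size. This gave 48 raised and 52 lowered members. All sizes and tests below come from the even-numbered arrays, which were not used for the choice.

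3T3-L1 cells are a mouse fibroblast line that turns into fat cells in culture. Cultures between days 8 and 12 of differentiation were given TNF at 3 ng/ml for 48 h. For a further 24 h the TNF cultures received TNF again at 3 ng/ml, and the combination cultures received 5 mM ASA with 10 µM TGZ. The cultures titled vehicle spent that time in medium with 0.2% albumin. The titles call this group vehicle, but the source text of the same arrays lists the TNF step before it, so whether those cells had seen TNF is not settled. If they had, the comparison of TNF with vehicle sets continued TNF against its withdrawal. Nor do the labels settle if TNF was present in the last 24 h of the combination. A response to ASA and TGZ and one to the loss of TNF cannot be told apart in the second step. The even-numbered arrays are 11 vehicle, 10 TNF and 10 combination arrays, 1 culture each, grown and harvested independently according to the series' design text. All 3 groups are of the same cell line, and no group received ASA or TGZ alone.

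TNF is an inflammatory cytokine. In fat cells it signals through NF-κB and stress kinases, lowers the activity of PPARγ, the nuclear receptor that maintains the fat cell programme, and makes cells respond less to insulin. ASA and TGZ were read as acetylsalicylic acid and troglitazone. At high concentration acetylsalicylic acid inhibits the IKKβ arm of NF-κB signalling, and troglitazone is a thiazolidinedione that activates PPARγ. Both are known to improve insulin action in cells exposed to TNF. The members are the features whose mean lay further from vehicle in the combination than in TNF, and not back towards it, in the odd-numbered arrays.

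No gene name or sequence pairs with these identifiers in the sources used here, so members are called by plate and well. MSK10c19 is the spot from plate 10, row c, column 19. The roles of the members, the levels of fat cell markers and the share of other cell types are therefore not described, and a change in the number of cells of one kind cannot be told apart from a change of RNA per cell. Values are deposited log ratios of a culture's RNA in Cy5 over a pool of untreated differentiated cells in Cy3. The direction is likely from the dyes and not settled. The base of the log is not given, and base 2 was assumed where a fold is printed. The values of a feature seem to be centred on vehicle since before deposit, so levels near 0 in vehicle say nothing of abundance and a member's level cannot be set against another's.

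The even-numbered arrays had medians over all features between -0.05 and 0.04. Of their 465 pairs, 13 correlated below -0.3 over all features, each pair with a vehicle array, and the lowest r was -0.451, between vehicle arrays 12 and 6. Vehicle array 6 stood apart by its spread, with an SD over all features of 0.600 against a vehicle median of 0.216. TNF array 6 had the smallest spread of the TNF arrays, with an SD of 0.265 against a median of 0.450. No array values were identical between arrays (0 pairs). Among the odd-numbered arrays of the choice, vehicle array 17 had a similarly wide spread, with an SD of 0.593. A choice made without it kept 43 raised and 47 lowered members.

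The sums of the members show the stepwise pattern array by array. The mean of the 48 raised members ran from -0.284 to 0.198 in vehicle (median 0.024), from 0.353 to 1.13 in TNF (median 0.741) and from 0.811 to 1.45 in the combination (median 1.04). The mean of the 52 lowered members ran from -0.153 to 0.189 in vehicle (median 0.0135), from -0.693 to -0.195 in TNF (median -0.551) and from -1.04 to -0.553 in the combination (median -0.839). For both sets the vehicle arrays lay apart from all others, while the TNF and combination arrays overlapped. Of the 10 replicate numbers shared by TNF and combination arrays, 9 had the higher raised mean in the combination and 9 the lower lowered mean. The exception was number 20 in both sets, with a second step of -0.0979 for the raised and 0.0763 for the lowered members. TNF array 6 had the value nearest to vehicle in both sets.

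**Figure D1:**
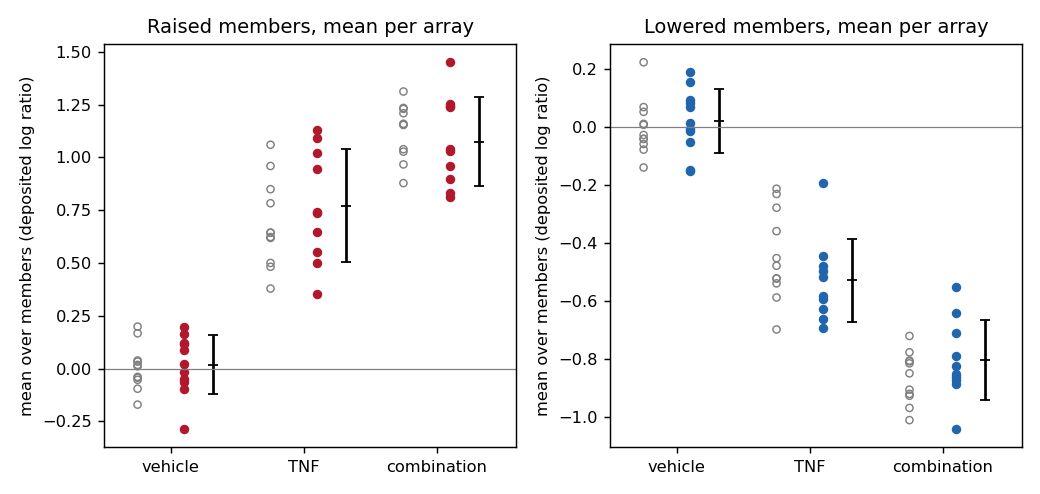
Mean deposited log ratio over the raised members (left) and over the lowered members (right) for each array of the 3 groups. Filled points are even-numbered arrays with their mean and SD (black), and open grey points are the odd-numbered arrays of the choice. Even-numbered vehicle arrays sit between -0.284 and 0.198 for the raised members, and the TNF and combination arrays overlap between 0.811 and 1.13.

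The first step was large and widely shared among members. In the comparison of TNF with vehicle, 39 of 48 raised members (81.2%) were higher under TNF at an adjusted p under 0.05 in limma, against 20.5% of all features called higher. Of the lowered members, 45 of 52 (86.5%) were lower, against 25.0% of all features. No member was called in the opposite direction (0 of 100). The median difference of the raised members was 0.64 log units, a 1.56-fold rise at base 2, with a range from -0.02 to 2.37. That of the lowered members was -0.52, with a range from -1.43 to -0.11. The median over all features was -0.03. The groups did not overlap for 8 raised members, against 2.54% of features, and for 2 lowered members, against 1.09%.

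The second step was smaller and was called for fewer members. Between the combination and TNF, 11 of 48 raised members (22.9%) were higher, against 3.16% of all features, and 18 of 52 lowered members (34.6%) were lower, against 5.46%. The median difference was 0.27 for the raised members, a 1.21-fold rise at base 2, and -0.27 for the lowered, beside 0.02 over all features. The direction of the choice returned in 42 of 48 and 42 of 52 members, whatever the size. The largest shift against the choice was -0.29 among the raised and 0.245 among the lowered members. Groups did not overlap for 3 raised members, against 0.330% of features, and for 0 lowered members, against 0.172%.

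When the replicate number entered the fit as a block, the second step was called for 20 raised members, against 5.69% of all features, and for 24 lowered members, against 8.80%. The block takes out the deviations that arrays of one number had in common across the groups. Leaving out TNF arrays 4 and 6 and combination array 6, chosen after their values were seen, left 10 lowered members called, against 2.51% of features. The scaling of the arrays changed these counts as well. With arrays scaled to a common MAD, a robust measure of spread, 5 raised and 2 lowered members were called, against 1.21% of features in either direction. After quantile normalization the counts were 7 and 3, against 1.38% and 2.00%. The first step of the raised members was then called for 20 (against 11.8% of features) and 21 (against 14.2%). MAD-scaled arrays had median second steps of 0.27 for raised and -0.23 for lowered members, against 0.27 and -0.27 unscaled. Quantile-normalized arrays had 0.14 and -0.20. Before scaling, the SD over all features had a median of 0.216 in vehicle, 0.450 in TNF and 0.428 in combination arrays. The part of this difference in spread in the lower counts was not tested. Among the arrays numbered 2 to 10 the median second step was 0.29 for raised and -0.34 for lowered members, and among those numbered 12 to 22 it was 0.27 and -0.22. This division of the numbers was found in these data by an earlier analysis and is not given by the labels. The first step had medians of 0.58 and -0.51 in the lower numbers and of 0.70 and -0.55 in the higher numbers. No member's difference was itself called different between the lower and higher numbers in limma (0 of 100 in each of the 3 comparisons), and over all features 8, 0 and 0 were. At an unadjusted p under 0.05 the 3 comparisons had 12, 3 and 10 of the 100 members, against 5.66%, 4.68% and 9.19% of all features, so that the last counts lie near the background.

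Over both steps nearly every member ended away from vehicle. In the combination 44 of 48 raised members (91.7%) were above vehicle, against 17.6% of all features, and 48 of 52 lowered members (92.3%) were below it, against 18.8%. The medians were 0.85, which is 1.80-fold at base 2, and -0.77. The groups did not overlap for 18 raised members, against 1.31% of features, and for 16 lowered members, against 1.29%. All 3 comparisons share arrays with each other, so their counts are not separate evidence.

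The rule of choice, applied again to the even-numbered arrays, was met by 20 of the 48 raised members (41.7%) and by 24 of the 52 lowered members (46.2%). Of all MSK features, 0.525% met the raised form of the rule in those arrays and 0.825% the lowered form. The first step was mostly larger there, with 31 raised and 38 lowered members further from vehicle than in the odd-numbered arrays. The second step shrank, and 11 raised and 9 lowered members had a larger one than in the arrays that chose them. Medians in the odd-numbered arrays had been 0.37 and -0.33 for the second step and 0.50 and -0.38 for the first. Sizes in the odd-numbered and even-numbered arrays were correlated across members (Pearson r). Across the 48 raised members the odd and even differences had r = 0.95 for the first step and 0.79 for the second, and across the 52 lowered members r was 0.806 and 0.834, over members that share arrays.

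**Figure D2:**
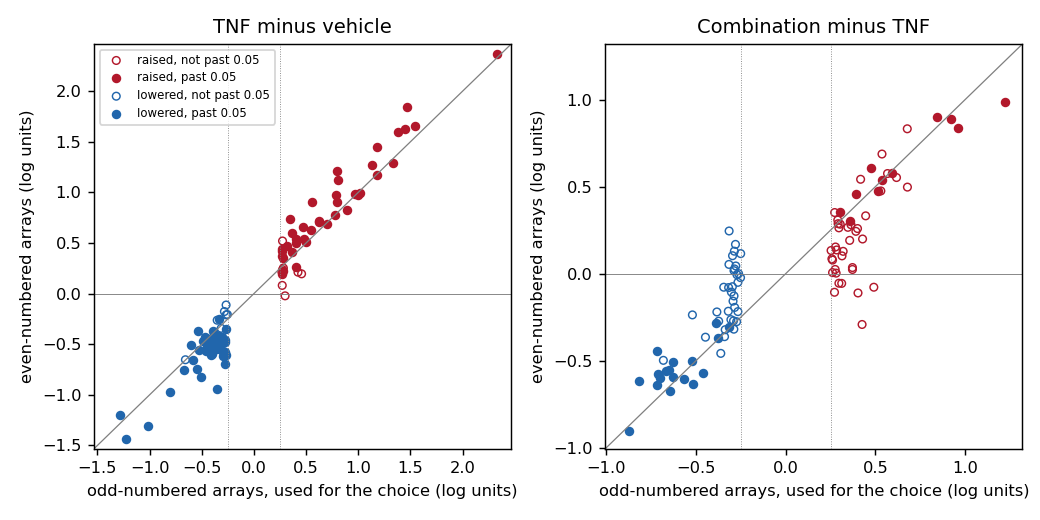
Difference of each member in the even-numbered arrays (vertical axis, log units) against the odd-numbered arrays used for the choice (horizontal axis, log units), for TNF against vehicle (left) and the combination against TNF (right). Filled points passed an adjusted p of 0.05 in the even-numbered arrays. On the right most points with a second step under 0.5 are open.

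How far the second step held depended on its size in the arrays of the choice. Of the 13 raised members with an odd second step of at least 0.5, 7 were called in the even-numbered arrays, with a median of 0.58. Of the 35 raised members under 0.5, 4 were called, with a median of 0.15. The lowered members divided in the same way, with 14 of 16 called and a median of -0.59 above that size, and 4 of 36 called and a median of -0.14 under it. The members nearest to the threshold fared like the latter. MSK38n3, just inside with odd steps of 0.27 and 0.25, had even steps of 0.44 and 0.13. MSK29j17, just inside on the lowered side with -0.30 and -0.25, had -0.61 and then 0.12. Just outside lay MSK16i22, with odd steps of 0.25 (0.249 before rounding) and 0.53 and even steps of 0.32 and 0.34. MSK31b18 lay just outside on the lowered side, with odd steps of -0.27 and -0.25 (-0.247 before rounding) and even steps of -0.29 and -0.03.

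Members also differed in which step was the larger. In the odd-numbered arrays the first step was the larger for 35 raised and 30 lowered members, and in the even-numbered arrays for 38 and 34. The 35 raised members led by the first step had even medians of 0.82 and 0.26, with 34 called in the first step and 2 in the second. The 13 raised members led by the second step had 0.23 and 0.46, with 5 and 9 called. Among the lowered, the 30 led by the first step had -0.54 and -0.13, with 28 and 4 called, and the 22 led by the second had -0.47 and -0.50, with 17 and 14 called. Of all features, 20.5% were called higher in the first step and 3.16% in the second, and 25.0% and 5.46% were called lower. The parts were split by the larger odd step, so a difference between them follows from the split. Whether the members form separate kinds was not tested. The lowered members led by the second step moved by similar amounts in both steps.

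Among the raised members, MSK04f5 was the clearest 2-step riser. Its values ran from -0.38 to 0.46 in vehicle (median 0.07), from 0.61 to 1.76 in TNF (median 1.43) and from 1.93 to 2.65 in the combination (median 2.09). Neither the vehicle and TNF arrays nor the TNF and combination arrays overlapped, and all 10 shared numbers rose in both steps. The first step was 1.27 (SE 0.132, adjusted p = 1.02e-08 in limma) and the second 0.89 (SE 0.136, adjusted p = 3.8e-05 in limma). Within a number the second step was smallest at 18, with 0.42, and largest at 4, with 1.41.

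MSK10k11 rose further but less evenly. It ran from -0.74 to 1.27 in vehicle (median -0.12), from 1.11 to 3.06 in TNF (median 1.79) and from 1.18 to 3.56 in the combination (median 2.89). Vehicle array 8 reached into the TNF range. The TNF and combination arrays overlapped through TNF array 18, at 3.06, and combination array 6, at 1.18. The next highest TNF array was at 2.41 and the next lowest combination array at 2.47. The steps were 1.84 (SE 0.235, adjusted p = 5.25e-07 in limma) and 0.83 (SE 0.241, adjusted p = 0.0257 in limma). The second step rose in 8 of 10 numbers and fell by 0.37 at number 6. With the replicate block the second step had an adjusted p of 0.00159 in limma. Its adjusted p lay between 0.00351 and 0.0553 when single arrays were left out, with the call lost in 2 of 31 such fits, without TNF array 4 (0.0553) and without combination array 16 (0.0526). The call was also lost with a common MAD (0.75, adjusted p = 0.172 in limma), after quantile normalization (0.53, adjusted p = 0.335) and within numbers 2 to 10 (1.03, adjusted p = 0.174) or 12 to 22 (0.63, adjusted p = 0.161).

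MSK10c19 had the largest first step of the members. It ran from -0.97 to 0.49 in vehicle (median 0.12), from -0.66 to 3.48 in TNF (median 2.65) and from 2.19 to 4.16 in the combination (median 3.31). A single TNF array, number 4, lay within the vehicle range, and the next lowest TNF array was at 1.89. The first step was 2.37 (SE 0.300, adjusted p = 4.83e-07 in limma). The second was 0.83 (SE 0.307, adjusted p = 0.0866 in limma) and so was not called, while with the replicate block its adjusted p was 0.0409. Its median within a number was 0.47, against 4.18 at number 4. Without TNF array 4 the second step was 0.49 (adjusted p = 0.129 in limma), and it was 1.34 among numbers 2 to 10 and 0.32 among numbers 12 to 22, called in neither.

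MSK06f21 and MSK19d24 stand for both ends of the raised set. MSK06f21 ran from -0.47 to 0.23 in vehicle, from 0.99 to 2.13 in TNF (median 1.44) and from 1.38 to 2.25 in the combination (median 1.93). Vehicle lay apart from both other groups, which overlapped. Its steps were 1.65 (SE 0.129, adjusted p = 1.2e-11 in limma) and 0.28 (SE 0.132, adjusted p = 0.204 in limma, 0.0401 with the replicate block). MSK19d24 ran from -0.22 to 0.33 in vehicle (median 0.09), from -0.58 to 1.12 in TNF (median 0.55) and from 0.32 to 1.94 in the combination (median 1.49). Its TNF arrays spread to both sides of vehicle. The first step of 0.25 (SE 0.182, adjusted p = 0.256 in limma) was not called. It was -0.17 among numbers 2 to 10 (adjusted p = 0.661) and 0.67 among numbers 12 to 22, where it was called (adjusted p = 0.00148 in limma). It was also called without TNF arrays 4 and 6 and combination array 6 (0.45, adjusted p = 0.0352), and it was 0.09 with a common MAD. The second step of 0.99 (SE 0.186, adjusted p = 0.000703 in limma) was the largest of the raised members and was positive in 10 of 10 numbers, with an adjusted p of 0.0502 among numbers 2 to 10 alone.

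Among the lowered members, MSK06b9 was called lower in both steps. It ran from -0.76 to 0.53 in vehicle (median 0.15), from -0.99 to -0.07 in TNF (median -0.67) and from -1.96 to -0.99 in the combination (median -1.53). Vehicle and TNF arrays overlapped, with vehicle array 6 the lowest of its group, and the combination arrays met the TNF arrays at a single value of -0.99. The steps were -0.66 (SE 0.141, adjusted p = 0.000434 in limma) and -0.91 (SE 0.144, adjusted p = 6.55e-05 in limma). The second step was negative in 10 of 10 numbers, between -1.52 and -0.50. After plate and position-class medians were removed (wells of a plate in rows 4 apart and columns 8 apart form a class), the first step was -0.29 and not called (adjusted p = 0.116 in limma). Among numbers 2 to 10 alone neither step was called (-0.59, adjusted p = 0.0581, and -0.79, adjusted p = 0.0885).

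MSK27e12 had smaller steps, whose calls depended on the setting. It ran from -0.64 to 0.53 in vehicle (median 0.09), from -1.08 to 0.22 in TNF (median -0.35) and from -1.48 to -0.43 in the combination (median -0.99). Each group overlapped the next. The steps were -0.42 (SE 0.156, adjusted p = 0.026 in limma) and -0.61 (SE 0.160, adjusted p = 0.013 in limma), and the second was negative in 10 of 10 numbers. With the replicate block they were -0.39 and -0.61 (adjusted p = 0.00761 and 0.00103 in limma). Leaving out single arrays moved the adjusted p of the first step between 0.0101 and 0.062, and the call was lost in 3 of 31 such fits, without vehicle array 2 (0.0517), TNF array 12 (0.0502) or TNF array 14 (0.062). Each of the 5 settings of scaling or plate position other than centring on the array median lost the first call as well, with adjusted p between 0.106 and 0.371, and the step was -0.19 after plate and position-class medians were removed. The second step was not called with a common MAD (adjusted p = 0.135), after quantile normalization (0.153), with those medians removed (0.0625) or without TNF arrays 4 and 6 and combination array 6 (0.0933). Among numbers 2 to 10 the steps were -0.24 and -0.83 and neither was called, and among numbers 12 to 22 the second step was -0.39 and not called.

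MSK16f16 ran from -0.41 to 0.37 in vehicle (median 0.05), from -1.48 to -0.23 in TNF (median -0.64) and from -1.82 to -0.35 in the combination (median -1.22). Its first step was -0.75 (SE 0.160, adjusted p = 0.000427 in limma). Its second step of -0.50 (SE 0.164) lay at the threshold, with an adjusted p of 0.0507 in limma and of 0.00568 with the replicate block, and it was negative in 9 of 10 numbers. Of 31 fits without a single array, 8 called it, with the lowest adjusted p of 0.0143 without combination array 2.

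MSK13d21 and MSK43k4 were the lowered members with the largest first step in the odd-numbered arrays. MSK13d21 ran from -0.86 to 0.85 in vehicle (median 0.16), from -2.11 to -0.42 in TNF (median -1.08) and from -2.06 to -0.93 in the combination (median -1.36). Its first step was -1.20 (SE 0.217, adjusted p = 6.65e-05 in limma) and its second -0.27 (SE 0.222, adjusted p = 0.533 in limma). MSK43k4 ran from -1.42 to 0.95 in vehicle (median 0.33), from -2.53 to -0.31 in TNF (median -1.53) and from -2.00 to -0.85 in the combination (median -1.33). Its first step was -1.43 (SE 0.254, adjusted p = 5.49e-05 in limma) and its second 0.04 (SE 0.260, adjusted p = 0.952 in limma). For both members the combination arrays lay within the range of the TNF arrays, and a second step was not detected in the even-numbered arrays. Their first steps were smaller among numbers 2 to 10, with -0.66 for MSK13d21 (adjusted p = 0.0571 in limma, not called) and -0.84 for MSK43k4 (adjusted p = 0.0406).

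**Figure D3:**
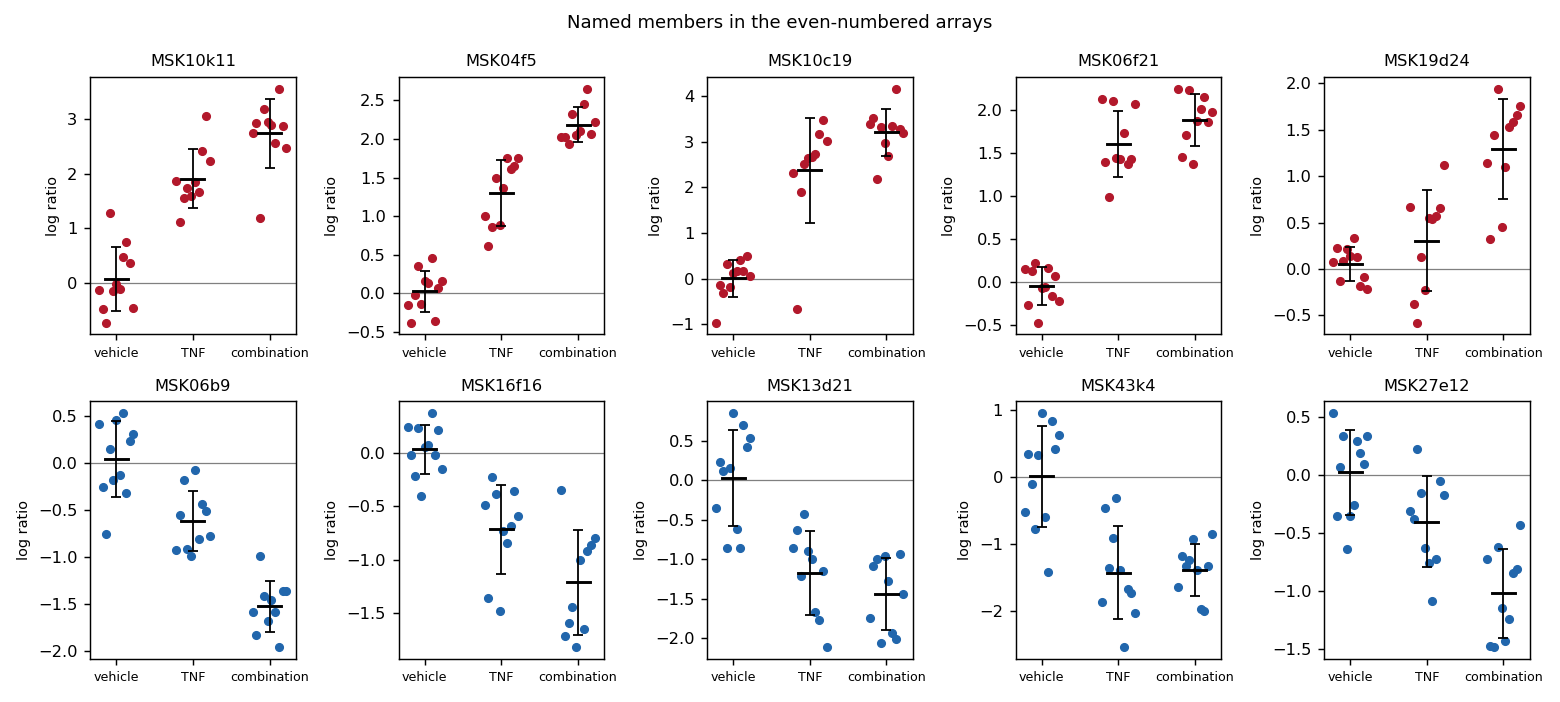
Deposited log ratio of the 10 named members in every even-numbered array of the 3 groups, with raised members in red, lowered members in blue, and the group mean and SD in black. MSK04f5 has 3 groups that do not overlap, and the combination arrays of MSK43k4 lie within the range of its TNF arrays.

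Members varied more between arrays of a group than all features did at the median, and they varied together. Raised members had a median SD of 0.299 among vehicle arrays, 0.378 among TNF arrays and 0.400 among combination arrays, against 0.239, 0.224 and 0.263 over all features. For lowered members it was 0.335, 0.278 and 0.300. The other MSK sets chosen by the same threshold in the odd-numbered arrays had medians from 0.217 to 0.348 in vehicle, so members did not stand apart there. In those sets it was 0.214 to 0.247 among TNF arrays and 0.261 to 0.323 among combination arrays. After group means were removed, pairs of raised members had a median r of 0.186 across the 31 arrays and pairs of lowered members one of 0.113, against -0.000892 for all MSK pairs. An r over 0.5 was reached by 16.3% of raised pairs, 13.8% of lowered pairs and 5.52% of all MSK pairs. These values describe pairs that share arrays.

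Grouping members by these deviations, at an average r of at least 0.5 and with 4 or more features a set, placed 34 raised members in 4 sets and 38 lowered members in 5. The sets were made after the values were seen and are given as a description with no test of the set. The first lowered set holds 11 members from 6 plates, MSK27e12 among them, with a median r of 0.671. Its mean ran from -0.413 to 0.433 in vehicle (median -0.0764), from -0.849 to 0.0418 in TNF (median -0.461) and from -1.31 to -0.715 in the combination (median -1.09). All combination arrays but 2 lay below every TNF array, and the second step was negative in 10 of 10 numbers. Its median steps were -0.47 and -0.59, with 10 and 11 members called, so that this set holds 11 of the 18 lowered members called in the second step.

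The second lowered set, also of 11 members, from 4 plates and with a median r of 0.660, went down in the first step alone. Its mean ran from -0.385 to 1.06 in vehicle (median -0.0382), from -0.982 to -0.080 in TNF (median -0.582) and from -0.925 to -0.304 in the combination (median -0.470). Its median steps were -0.57 and 0.02, and 11 members were called in the first step and 0 in the second, with or without the block. In the odd-numbered arrays its second step had a median of -0.29, which met the threshold of choice. Vehicle array 6 carried the value of 1.06, and the next vehicle array was at 0.242. Deviations of the first and second lowered sets had a median r of -0.0637 with each other, and the grouping itself favours a low r between sets. The 3 smaller lowered sets, of 7, 5 and 4 members, had second steps of -0.27, -0.22 and -0.47, with 1, 1 and 2 members called, and 3, 1 and 4 with the block.

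The first raised set holds 13 members from 8 plates, MSK06f21 and MSK19d24 among them, with a median r of 0.647. Its mean ran from -0.364 to 0.351 in vehicle (median 0.0554), from 0.324 to 1.88 in TNF (median 0.654) and from 0.689 to 2.00 in the combination (median 1.41). The TNF arrays fell apart, with numbers 2, 8, 18 and 20 at 1.27 or above and the other 6 at 0.667 or below. Numbers 2 and 8 were also among the 3 highest arrays of the set in vehicle and in the combination, while number 16 was the highest in both of those groups (0.351 and 2.00) and among the lower arrays in TNF (0.478). The median steps were 0.97 and 0.47, with 12 members called in the first step. In the second, 1 member was called and 6 with the block, and 9 of 10 numbers rose.

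The second raised set, of 9 members with a median r of 0.559, holds MSK04f5, MSK10c19 and MSK10k11. It had median steps of 1.21 and 0.27, with 7 and 2 members called (4 in the second step with the block), and its mean was higher in the combination in 10 of 10 numbers, at number 20 by 0.00222 only. The third raised set, of 8 members, is the raised match of the second lowered set. Its steps were 0.54 and -0.03, with 8 members called in the first step and 0 in the second, and its second step in the odd-numbered arrays had been 0.30. The fourth, of 4 members, had steps of 0.22 and 0.51, with 2 and 3 called.

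**Figure D4:**
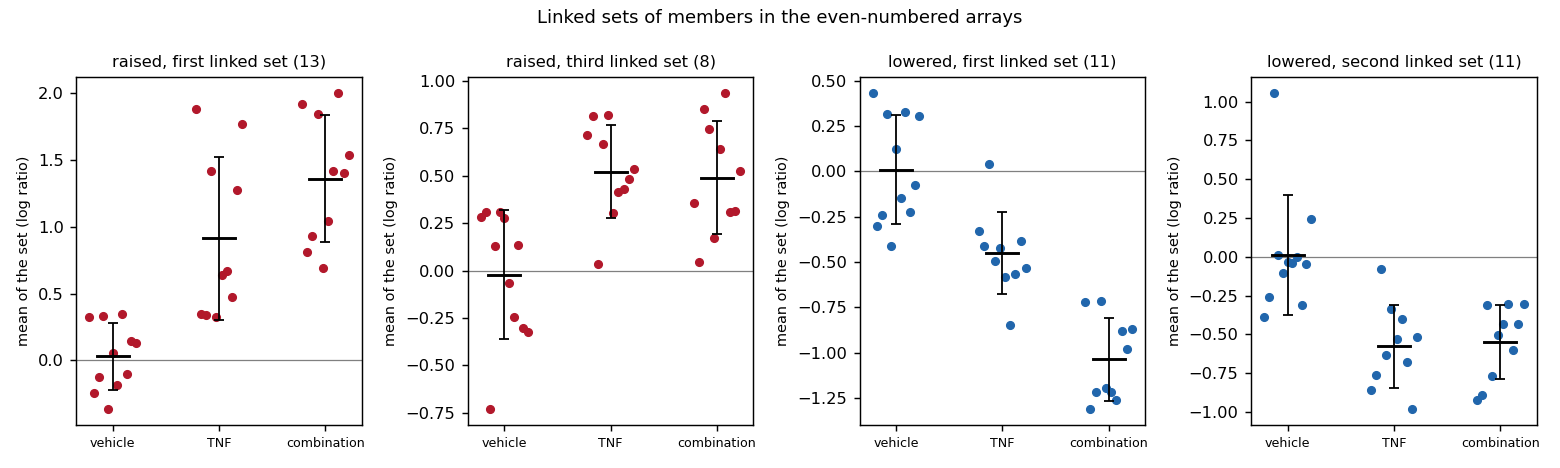
Mean deposited log ratio of the first and the third raised set (red) and of the first and the second lowered set (blue) in each even-numbered array of the 3 groups, with the group mean and SD in black and the number of members in brackets. The first lowered set steps down in both steps, the second lowered set stays at the TNF level in the combination, and the first raised set has 4 TNF arrays at 1.27 or above and 6 at 0.667 or below.

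The places of the members on the source plates were not even. Raised members came from 21 of 26 plates and lowered members from 17, with 8 lowered members on plate 3, 7 on plate 27 and 5 raised members on plate 4. Pairs of lowered members in one class of one plate made up 1.13% of their pairs, and raised ones 0.443%, against 0.116% of all MSK pairs. Such neighbours had correlated deviations, with a median r of 0.672 among lowered and 0.631 among raised members, against 0.287 among all MSK features. Rows b, f, j and n held 36.5% of lowered and 33.3% of raised members, against 27.4% of MSK features, and rows a, e, i and m held 13.5% and 14.6%, against 25.8%. In the first lowered set 6 of the 55 pairs shared a place, and the other pairs had a median r of 0.671. That set was formed by these same correlations, so a high r among its pairs was built in and says nothing of position. The 18 lowered members called in the second step stood at 13 places on 12 plates, and the 11 raised ones at 11 places on 8 plates. After the median of each plate and position class was removed from each array, 25 raised members were called in the first step, against 18.9% of features. A choice from the odd-numbered arrays so treated kept 22 raised and 20 lowered members. The part of array position in these counts was not tested further.

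The MSK features most like the members in the first step held their level or turned back in the second. In the odd-numbered arrays 948 MSK features rose by at least 0.25 under TNF and then moved by less than that, and in the even-numbered arrays their steps had medians of 0.41 and -0.09. Of these, 0.316% were called higher in the combination than in TNF. The like set of 992 lowered features had steps of -0.38 and 0.07, and 0.302% were called lower. A reversal was chosen more often than a further move in the odd-numbered arrays. It was met by 269 raised features with even steps of 0.40 and -0.38 and by 142 lowered features with -0.38 and 0.26. The TNF mean enters both steps with opposite sign, so error in it makes reversals more frequent in these counts. Like the members in the second step were 491 MSK features that moved by less than 0.25 under TNF and then rose by at least 0.25. A further 469 fell so. In the even-numbered arrays 18.1% of the 491 were called higher in the second step, against 22.9% of raised members. Of the 469, 40.7% were called lower, against 34.6% of lowered members. A second step that carried over was thus not particular to the members. Members are the smallest of these sets in both directions. They were told from the others by the odd-numbered values, so these shares describe how the choice carried over to other arrays.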

How the data were processed

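The deposited values are log ratios, taken as log2, which the authors made from 2-colour spotted arrays, with the culture in Cy5 and a common pool in Cy3 per the labels. Labelling started from 20 µg of total RNA. Not given in the sources used here are the background correction, the normalization, the log base and any depth. Scale and direction therefore stay unknown, and features appear centred on vehicle (the ratio of the next smallest to the smallest variance among weighted array sums was 15.8 for vehicle against 1.21 for TNF and 1.09 for the combination). Of 64 arrays grouped by title, 33 odd-numbered ones chose the members and 31 even-numbered ones were tested. The number of arrays limits the precision.

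Group means of the even-numbered arrays were fitted to all 6963 features in limma 3.58.1 under R 4.3.3 (lmFit, eBayes). Two-sided p-values were adjusted over all features of each comparison by Benjamini-Hochberg, and an adjusted p under 0.05 was called. Simulated data were used to test the script. The members and lists were chosen with earlier results of these data known. Named features are, in each direction, those with the largest first, second and smaller step in the odd-numbered arrays, 2 each, and those nearest to the threshold. The marker and gene lists planned for these cells could not be used, because 0 features pair with a gene name here.

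Replicate numbers were checked for pairing in the even-numbered arrays. Same-numbered arrays deviated together from their group means in 10 of 10 pairs of vehicle and TNF (r from 0.211 to 0.601), in 10 of 10 pairs of TNF and combination (lowest r 0.100) and in 9 of 10 pairs of vehicle and combination above an r of 0.1. The labels do not say what a number stands for, and they tie neither the 6 collection days nor the 5 passages to arrays. The pairing comes from these values. Results with the number as a block are given for the counts of the second step and for named members whose call changed or depended on other settings. Alternatives covered scaling, plate position, blocks, lower and higher numbers, thresholds, single arrays and exchanged roles of odd and even arrays.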

Additional observations from a re-analysis of the deposited data

Results flagged for a closer look

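In 24 groups of values checked, 3 had an array standing apart from the other 9 by more than Dixon's 95% limit, where chance gives about 1 in 20 groups. MSK10c19 was at -0.66 in TNF array 4, and the next lowest TNF array was at 1.89. The mean of the lowered members was -0.195 in TNF array 6, and the next was at -0.445. MSK10k11 was at 1.18 in combination array 6, and the next lowest combination array was at 2.47.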

How the results depend on the processing

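Of 246 counts and medians recomputed under settings other than leaving out single arrays, 196 kept their size within the limits used and 50 moved. The direction of these 50 did not turn, and the cause was not tested. Scaling to a common MAD left 20 raised members called in the first step, 5 raised and 2 lowered in the second, and 26 raised and 28 lowered features chosen. Quantile normalization left 21, 7 and 3 called, 9 raised members meeting the rule again, a median of -0.63 for lowered members in the combination against vehicle, and 15 and 24 features chosen. Over all features, the median shift of a group difference stayed within 0.032 log units under each setting of scaling or plate position. Shifts up and down offset each other in such a median, so single features could move more. Removing plate and position-class medians, added after the data were seen, left 25 raised members called in the first step and a median of -0.37 for the lowered. The replicate block raised the second step to 20 raised members and changed no other count by over 1.5 times. Numbers 2 to 10 alone gave 18 and 16 members called in the first step (against 9.91% and 9.46% of all features), 5 and 3 in the second (0.732% and 0.302%), and a median of -0.91 (-0.905 unrounded) for lowered members in the combination against vehicle. Numbers 12 to 22 alone gave 4 and 9 in the second step (1.67% and 3.69%). At an adjusted p of 0.01, 11 lowered members passed in the second step. The share of all features passing 0.01 is not given here, so that count stands without a background. Without TNF arrays 4 and 6 and combination array 6, 10 lowered members were called in the second step at 0.05, against 2.51% of features.

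With the roles of odd and even arrays exchanged, 35 raised and 55 lowered features were chosen, 20 and 24 of them members. In the odd-numbered arrays 25 of the 35 raised features were called in the first step. In the second step 17 of them and 32 of the 55 lowered features were called. The share of all features called in those arrays is not given here, so these counts stand without a background. The median first step of the lowered was -0.37. A size threshold of 0.2 chose 101 and 112 features. It gave 67 and 87 called in the first step, 18 raised in the second, and 86 and 102 in the combination against vehicle, with medians of 0.59 and -0.60 there and of -0.13 for the second step of the lowered. A threshold of 0.35 chose 21 and 18 features. It gave 18 and 17 called in the first step, 4 raised in the second, 19 and 18 in the combination against vehicle, and 12 raised meeting the rule again. Its medians were 0.97 for the first step of the raised, -0.56 (-0.5555 unrounded) for the second step of the lowered, and 1.37 and -1.03 in the combination against vehicle. For both thresholds the shares of all features called were 20.5% higher and 25.0% lower in the first step. They were 3.16% higher in the second step, and 17.6% higher and 18.8% lower in the combination against vehicle.

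Leaving out each array in turn gave 33 to 40 raised and 41 to 45 lowered members called in the first step, 9 to 13 and 15 to 22 in the second, and 42 to 45 and 47 to 49 in the combination against vehicle. Shares of all features called are not given for these fits. The rule was met again by 16 to 23 raised and 23 to 27 lowered members. Named second steps that changed sign were not called. That of MSK43k4 was -0.274 in numbers 2 to 10, and between -0.079 and -0.00456 without TNF array 2, 14 or 20 or combination array 10 or 20, with 0.168 as the highest value without a single array (TNF array 10). That of MSK13d21 was 0.024 in numbers 12 to 22. The first step of MSK19d24 was -0.17 in numbers 2 to 10 and 0.67, called, in numbers 12 to 22. A filter on dim spots was not run, since intensities are not used here. Signal over background, and so what it limits, is unknown.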

Other observations

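Features outside the MSK collection that met the same thresholds in the odd-numbered arrays lay together on their plates. There were 26 raised ones, 24 of 194 MMC and 2 of 73 IRchip features, and 15 lowered ones, 13 MMC and 2 of 32 HuM features. The 24 raised MMC features were the 24 wells in odd columns of rows a and c of plate MMC02. In the even-numbered arrays their mean ran from -0.268 to 0.182 in vehicle (median -0.0171), from 0.530 to 1.28 in TNF (median 0.766) and from 0.716 to 1.65 in the combination (median 1.19). All 24 were called higher in the first step and 7 in the second, with median steps of 0.87 and 0.37. What was printed in these wells is not known here. Deviations of single wells had a median r of 0.0765 with each other, while 18 of the 48 raised members had r over 0.5 with the mean of the wells, against 2.25% of MSK features. The highest was MSK38n15, with 0.836.

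All 11 listed wells in odd columns of row d of plate MMC01 met the lowered thresholds. Their median steps in the even-numbered arrays were -0.25, with 1 well called, and -0.57, with 9 called. Deviations of these wells had a median r of 0.756. Of the 52 lowered members, 3 had r over 0.5 with their mean, against 6.09% of MSK features.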
